A study of Homo sapiens with 8 samples.

Results

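The genes described here encode 32 subunits of the 4 families of complexes that carry class I histone deacetylases: NuRD, SIN3, NCOR, and CoREST with MIER. They were taken by symbol, without the deacetylases themselves, and all 32 were found once among the 16608 genes with counts in all libraries. By complex they comprise 11 NuRD subunits (MTA1, MTA2, MTA3, CHD3, CHD4, MBD2, MBD3, GATAD2A, GATAD2B, RBBP4 and RBBP7) and 11 SIN3 subunits (SIN3A, SIN3B, SAP18, SAP30, SAP130, SUDS3, ARID4A, ARID4B, BRMS1, ING1 and ING2). There are also 4 NCOR subunits (NCOR1, TBL1X, TBL1XR1 and GPS2) and 6 of CoREST and MIER (RCOR1, RCOR3, KDM1A, PHF21A, HMG20B and MIER1). RBBP4 and RBBP7 belong to SIN3 as well and were counted under NuRD only.

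RNA was sequenced from SupB15, an established human line derived from precursor B-cell acute lymphoblastic leukemia, in 8 libraries, 2 independent samples for each of 4 treatments. In the 1035+Doxo group, 36 h of the compound 1035 at 2 µM were followed by 10 h of doxorubicin at 0.1 µM. The 1035 group had 2 µM 1035 for 46 h, the Doxo group had 0.1 µM doxorubicin for 10 h, and the DMSO group had solvent for 46 h. The series title names 1035 only as an inhibitor of histone deacetylases (HDACs), and doxorubicin is an anthracycline that poisons topoisomerase II. The DMSO group was thus treated longer than the Doxo group, and the sources used here do not state whether 1035 stayed in the medium beside doxorubicin. All 4 groups are 1 cell line.

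HDAC1 and HDAC2 rarely act alone: the NuRD, SIN3, CoREST and MIER scaffolds bind and activate them, and NCOR does the same for HDAC3. The other subunits decide where the enzyme works, through domains that bind modified histones, methylated DNA or transcription factors, and NuRD adds an ATP-driven nucleosome remodeler. In lymphocytes NuRD is known as a partner of the Ikaros proteins, and TBL1XR1 is a recurrent deletion target in precursor B-cell leukemia. An HDAC inhibitor acts on the enzymes, so the RNA of the subunits around them is a separate readout.

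Depth was 11760542 to 18144670 reads on the 16608 genes with counts in all libraries. Members had between 88 reads (ING2, the lowest count of a member in any library) and 13011. The spread between the 2 libraries of a group, as chi-square per degree of freedom (1 is sampling noise), was 2.43 in 1035+Doxo, 3.35 in 1035, 5.13 in Doxo and 1.89 in DMSO, so the Doxo pair was the least alike. All 10 precursor B-cell markers on the list had counts. Their summed level was 2978 to 3210 CPM (counts scaled to library size after TMM normalisation) in the 4 libraries given 1035, against 4190 to 4551 CPM in the 4 without it. The markers did not move as one: IGLL1 was at 220.5 to 265 CPM with 1035, against 766 to 866 CPM without, and DNTT at 499 to 541 CPM, against 869 to 977 CPM. CD79A was at 188 to 207 CPM with 1035, against 143 to 158 CPM without, and CD79B at 195 to 224 CPM, against 154 to 191 CPM. Of 22 markers of T and NK, myeloid, fibroblast and erythroid cells, 4 had counts in all libraries (NKG7, LYZ, CSF1R and COL1A1). Their sum was 29.7 to 34.3 CPM in libraries given 1035, against 26.2 to 28.0 CPM in the others, and none of the 5 erythroid markers had counts in all libraries. CSF1R was at 15.5 to 18.8 CPM with 1035, against 10.7 to 12.8 CPM without. LYZ was at 1.98 to 2.81 CPM, against 3.41 to 4.30 CPM, and NKG7 overlapped. COL1A1, scarce throughout, was at 1.14 to 2.89 CPM with 1035, against 0.13 to 0.48 CPM without. The part of these shifts in the results below was not tested.

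Promoter windows are shown for CHD3 and MBD3, the subunits that fell most under 1035, each beside the paralog that did not pass the test, CHD4 and MBD2. Each window is the 250 bases before the gene start in RefSeq (GRCh38.p14), printed 5′ to 3′ on the gene's strand: CHD3 at chr17:7888539-7888788 (plus), CHD4 at chr12:6606452-6606701 (minus), MBD3 at chr19:1592866-1593115 (minus) and MBD2 at chr18:54224670-54224919 (minus). Capitals mark matches, on either strand, to GGGCGG (the core of a GC box) or CCAAT.
CHD3: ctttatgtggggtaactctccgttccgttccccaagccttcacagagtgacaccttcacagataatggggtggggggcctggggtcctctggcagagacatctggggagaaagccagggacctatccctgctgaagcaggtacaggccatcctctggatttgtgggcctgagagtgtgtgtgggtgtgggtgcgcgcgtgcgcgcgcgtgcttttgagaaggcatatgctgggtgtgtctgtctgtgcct
CHD4: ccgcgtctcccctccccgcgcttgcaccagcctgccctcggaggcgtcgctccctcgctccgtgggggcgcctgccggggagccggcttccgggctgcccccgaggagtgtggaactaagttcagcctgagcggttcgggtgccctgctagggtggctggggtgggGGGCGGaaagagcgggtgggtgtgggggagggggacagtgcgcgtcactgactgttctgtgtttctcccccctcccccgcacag
MBD3: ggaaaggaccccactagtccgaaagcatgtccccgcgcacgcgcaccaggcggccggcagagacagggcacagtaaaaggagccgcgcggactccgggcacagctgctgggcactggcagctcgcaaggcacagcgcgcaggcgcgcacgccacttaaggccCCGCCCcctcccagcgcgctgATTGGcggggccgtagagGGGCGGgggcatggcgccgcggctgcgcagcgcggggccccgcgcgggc
MBD2: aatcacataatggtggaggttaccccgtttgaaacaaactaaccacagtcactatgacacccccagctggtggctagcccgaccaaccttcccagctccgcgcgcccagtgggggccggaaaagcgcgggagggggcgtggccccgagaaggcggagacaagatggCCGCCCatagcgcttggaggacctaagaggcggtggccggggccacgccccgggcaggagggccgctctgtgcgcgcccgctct

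The CHD3 window held neither motif and 9 CpG dinucleotides, the CHD4 window 1 GGGCGG and 21 CpG. The MBD3 window held 2 GGGCGG, 1 CCAAT and 32 CpG, and the MBD2 window 1 GGGCGG and 21 CpG. Over all windows of that length in the RefSeq table, 35116 in number, 42.6% held GGGCGG and 32% held CCAAT, and the median was 11 CpG. Of the members, 31 matched the table, some with several starts, and 36 of their 47 windows (76.6%) held GGGCGG while 17 (36.2%) held CCAAT. The median member window had 27 CpG. CACGTG, the E-box, was in 4.26% of member windows against 6.34% of all windows, and TTTNGCGC, an E2F-type motif, in 0 against 1.51%. SAP18 was not in the table. A match is a string of letters and not a bound site, and whether the letters relate to the changes was not tested.

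The comparison of 1035 against DMSO asks whether the RNA of the subunits around the deacetylases differs after an HDAC inhibitor. In this comparison 16 of the 32 subunits passed the test, 9 of them higher and 7 lower in 1035 (edgeR quasi-likelihood F-test, Benjamini-Hochberg FDR of 0.05 over 16320 genes). That is 50% of the subunits, while 49% of all genes tested passed, 24.2% higher and 24.8% lower, so the number called is near the background and is no result about the subunits. Their median log2 fold change was -0.01, against 0.01 over all genes. By complex, NuRD had 1 subunit higher, 6 lower and 4 not past the test, with a median of -0.32, whereas SIN3 had 5 higher, 1 lower and 5 not past the test, with a median of 0.05. NCOR had 1 higher and 3 not past the test, and CoREST with MIER had 2 higher and 4 not past the test. These counts describe the lists, and the difference between complexes was not tested. RBBP4 and RBBP7, both counted among the lower NuRD subunits, also belong to SIN3, so the contrast rests partly on this assignment. In bulk RNA, less RNA of a gene per cell and fewer cells that express it cannot be told apart.

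**Figure D1:**
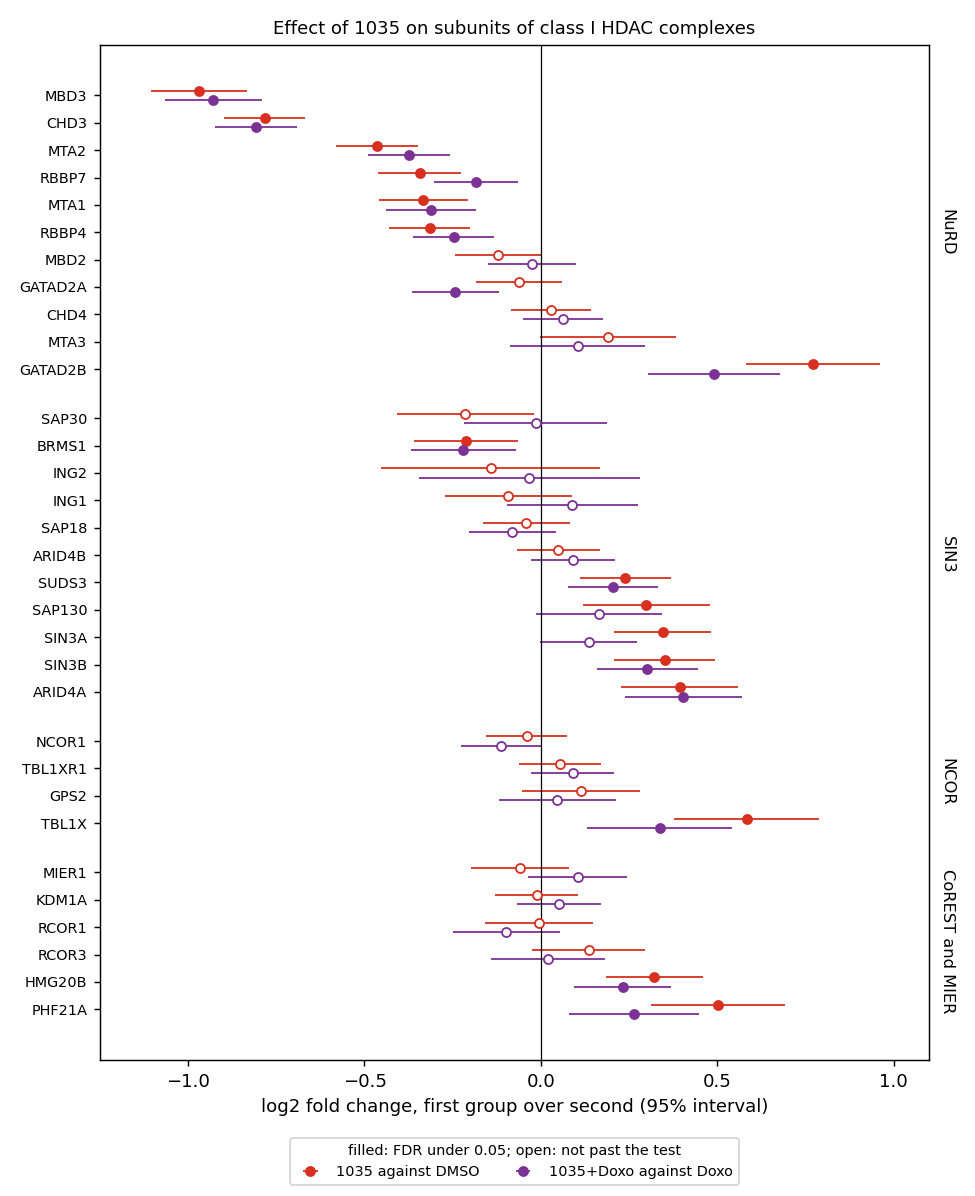
Log2 fold change of each of the 32 subunits, grouped by complex, in 1035 against DMSO and in 1035+Doxo against Doxo; bars are 95% intervals from the quasi-likelihood fit and filled points passed the FDR of 0.05. MBD3 (-0.97) and CHD3 (-0.78) lie lowest and GATAD2B (0.77) highest in 1035 against DMSO.

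Among NuRD subunits the largest fall was that of MBD3, the methyl-CpG-binding-domain protein that, unlike MBD2, lacks firm binding to methylated DNA. MBD3 measured 78.7 and 79.0 CPM in 1035+Doxo, 75.6 and 87.3 CPM in 1035, 143 and 157 CPM in Doxo, and 163 and 155 CPM in DMSO. Every library given 1035 lay below every library without it. The log2 fold change was -0.97 ± 0.07 (SE, n = 2 each) in 1035 against DMSO, with an adjusted p of 4.26e-15 in edgeR. In 1035+Doxo against Doxo, which compares other libraries, it was -0.93 ± 0.07 (adjusted p = 2.22e-14). The SE and adjusted p of both comparisons rest on 1 fit over all 8 libraries, so they are not independent. MBD2, the paralog that takes the same place in other NuRD assemblies, measured 140 and 129 CPM in 1035+Doxo, 138 and 133 CPM in 1035, 140 and 133 CPM in Doxo, and 148 and 147 CPM in DMSO. Its libraries given 1035 overlapped those without it, and its log2 fold change in 1035 against DMSO was -0.12 (95% interval -0.24 to 0.00, adjusted p = 0.10).

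CHD3, one of the ATPases that slide nucleosomes for NuRD, measured 296 and 311 CPM in 1035+Doxo, 302 and 314 CPM in 1035, 545 and 517 CPM in Doxo, and 531 and 529 CPM in DMSO. The ranges with and without 1035 were far apart. CHD3 fell by 0.78 ± 0.06 (log2, SE, n = 2 each) in 1035 against DMSO (edgeR adjusted p = 1.05e-14) and by 0.81 ± 0.06 in 1035+Doxo against Doxo (adjusted p = 5.96e-15). CHD4, the ATPase that usually fills this role in lymphoid cells, measured 764 and 726 CPM in 1035+Doxo, 743 and 739 CPM in 1035, 728 and 698 CPM in Doxo, and 736 and 717 CPM in DMSO. Its groups overlapped, and its log2 fold change in 1035 against DMSO was 0.03 (95% interval -0.08 to 0.14, adjusted p = 0.70). CHD3 overlaps SCARNA21 on its own strand and NAA38 on the other. MBD3 overlaps the readthrough gene AC005943.1 on its own strand and AC005943.2 on the other. CHD4 overlaps the protein-coding gene AC006064.6 and SCARNA11 on its own strand and the antisense gene AC006064.2 on the other. MBD2 hosts SNORA37. The sources used here do not state how strand was handled in counting, so reads of these neighbours may enter the values.

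The MTA proteins are the scaffolds that hold HDAC1 and HDAC2 in NuRD. MTA2 measured 320.2 and 322 CPM in 1035+Doxo, 316 and 339 CPM in 1035, 428 and 403 CPM in Doxo, and 456 and 449 CPM in DMSO, and the libraries given 1035 were all below the rest. It fell by 0.47 ± 0.06 in 1035 against DMSO (log2, SE, n = 2 each, edgeR adjusted p = 7.88e-09). MTA1 fell by 0.33 in 1035 against DMSO and by 0.31 in 1035+Doxo against Doxo (adjusted p = 2.42e-05 and 8.2e-05). MTA3, known as the partner of BCL6 in germinal centre B cells, averaged 26.3 ± 1.19 CPM in 1035+Doxo, 25.5 ± 0.73 CPM in 1035, 24.5 ± 0.32 CPM in Doxo and 22.3 ± 1.44 CPM in DMSO (SD, n = 2 each), with every library given 1035 above the others. Its log2 fold change of 0.19 in 1035 against DMSO missed the test (adjusted p = 0.0976).

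GATAD2B, the p66-beta protein that bridges the MBD subunit to the CHD remodeler, was the NuRD subunit that rose. It measured 72.7 and 72.1 CPM in 1035+Doxo, 72.5 and 67.3 CPM in 1035, 44.9 and 59.1 CPM in Doxo, and 40.4 and 41.5 CPM in DMSO. The libraries given 1035 were all above the others, and the second Doxo library lay between the first Doxo library and those given 1035. GATAD2B rose by 0.77 ± 0.09 in 1035 against DMSO (log2, SE, n = 2 each, edgeR adjusted p = 1.07e-07) and by 0.49 ± 0.09 in 1035+Doxo against Doxo (adjusted p = 7.18e-05). Its paralog GATAD2A (p66-alpha), which occupies the same position, was at 133 and 134 CPM in 1035+Doxo and 141 and 148 CPM in 1035, against 152 and 165 CPM in Doxo and 152 and 150 CPM in DMSO. GATAD2A fell by 0.24 in 1035+Doxo against Doxo (adjusted p = 0.00112), and its log2 fold change in 1035 against DMSO was -0.06 (adjusted p = 0.422). The histone chaperones RBBP4 and RBBP7 fell by 0.31 and 0.34 in 1035 against DMSO and by 0.25 and 0.18 in 1035+Doxo against Doxo. RBBP4 has 7 pseudogenes named for it in RefSeq, so how its reads were assigned is uncertain. The same holds for NCOR1 (4), SAP18 (3), GPS2 (2), and MTA3, SAP30 and SUDS3 (1 each). The RBBP7 call in 1035+Doxo against Doxo ended without the first Doxo library (adjusted p = 0.117) and without the second 1035+Doxo library (0.0925).

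**Figure D2:**
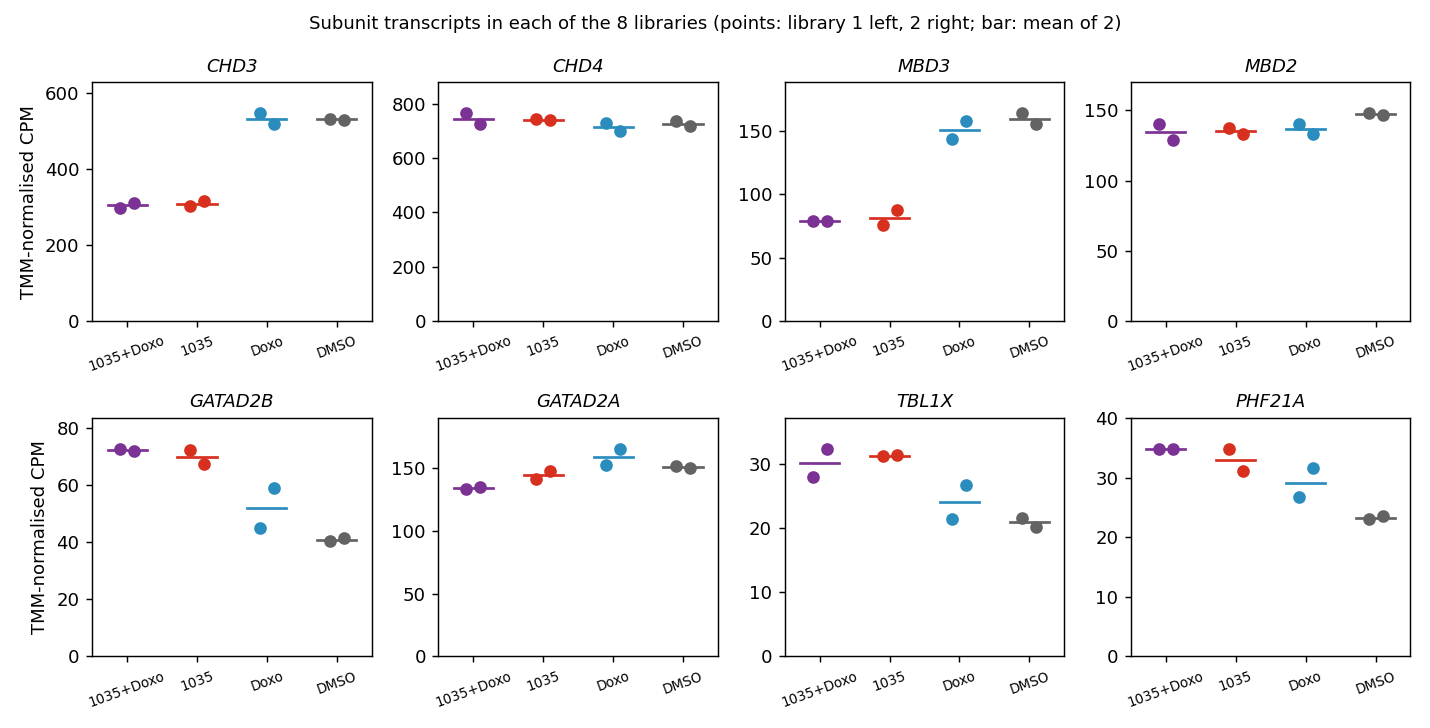
CPM in every library (points, linear axes from 0; bars are means of 2) for the 5 subunits that passed the test by at least 0.5 in log2 (MBD3, CHD3, GATAD2B, TBL1X and PHF21A) and for the paralogs CHD4, MBD2 and GATAD2A, with groups in the order 1035+Doxo, 1035, Doxo and DMSO. For MBD3 the libraries given 1035 lie at 75.6 to 87.3 CPM and the others at 143 to 163 CPM, while MBD2 stays between 129 and 148 CPM.

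Of the 6 SIN3 subunits past the test in 1035 against DMSO, 5 rose and BRMS1 fell. RBBP4 and RBBP7, which SIN3 shares with NuRD, fell and are not among the 6. SIN3A and SIN3B, the scaffolds of the complex, rose by 0.34 ± 0.07 and 0.35 ± 0.07 in 1035 against DMSO (log2, SE, n = 2 each, edgeR adjusted p = 4.45e-05 and 6.46e-05). SIN3B also rose by 0.30 in 1035+Doxo against Doxo (adjusted p = 0.000544), where SIN3A had 0.14 and missed the test (adjusted p = 0.105, and 0.00249 without the second Doxo library). SIN3A was at 101 to 108 CPM with 1035 and at 82.4 to 102 CPM without, since the second Doxo library reached 102 CPM and the first 87.8 CPM. SIN3B was at 72.0 to 80.2 CPM with 1035 and at 58.0 to 62.4 CPM without, with no overlap.

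ARID4A, which binds the retinoblastoma protein, rose by 0.39 ± 0.08 in 1035 against DMSO (log2, SE, n = 2 each, edgeR adjusted p = 9.61e-05) and by 0.40 in 1035+Doxo against Doxo. Its libraries were at 48.0 to 53.3 CPM with 1035 and at 37.6 to 40.7 CPM without. Its paralog ARID4B measured 0.05 in 1035 against DMSO (95% interval -0.07 to 0.17). SUDS3, which joins SIN3 to HDAC1, rose by 0.24 and 0.20 in the same comparisons, and SAP130 rose by 0.30 in 1035 against DMSO. The SUDS3 calls ended without the first DMSO library in the first of these (adjusted p = 0.0826), and without the first Doxo or second 1035+Doxo library in the second (0.117 and 0.0553). BRMS1, named as a suppressor of breast cancer metastasis, was at 56.4 to 65.0 CPM with 1035 and at 66.7 to 70.9 CPM without, and fell by 0.21 in 1035 against DMSO (adjusted p = 0.015). The BRMS1 call ended without the first 1035 library (0.302), without the first or second DMSO library (0.0683 and 0.0839), in DESeq2 (0.0653) and with a count filter of 50 (0.053).

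The remaining SIN3 subunits did not pass the test in 1035 against DMSO. SAP18, which also serves in a splicing-linked complex, had a log2 fold change of -0.04, and SAP30, a bridge between SIN3 and HDACs, had -0.21 (adjusted p = 0.0624, and 0.0476 and 0.0496 without the first or second Doxo library). ING1 and ING2, whose PHD fingers read methylated histone H3, had -0.09 and -0.14, and ING2 was the lowest member in CPM, between 6.91 and 8.99.

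Of the NCOR subunits among the 32, TBL1X alone passed the test. TBL1X, a WD40 protein that helps to exchange corepressors for coactivators, measured 27.9 and 32.3 CPM in 1035+Doxo, 31.2 and 31.3 CPM in 1035, 21.4 and 26.7 CPM in Doxo, and 21.6 and 20.1 CPM in DMSO. The libraries given 1035 were all above the others, although the first 1035+Doxo library lay near the second Doxo library. It rose by 0.58 ± 0.10 in 1035 against DMSO (log2, SE, n = 2 each, edgeR adjusted p = 7.76e-06). It rose by 0.34 in 1035+Doxo against Doxo (adjusted p = 0.0062). That call ended without the first Doxo library (adjusted p = 0.255), without the second 1035+Doxo library (0.166) and in DESeq2 (0.065). Its close relative TBL1XR1, at 458 to 540 CPM over all libraries, had 0.05 in 1035 against DMSO. NCOR1, the scaffold that activates HDAC3, had -0.04, and GPS2, a small inhibitory subunit, had 0.11 (adjusted p = 0.266, and 0.0246 without the first 1035 library). The 95% intervals of TBL1XR1, NCOR1 and GPS2 lay between -0.16 and 0.28.

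CoREST joins HDAC1 and HDAC2 to the histone demethylase KDM1A (LSD1). Its subunit PHF21A (BHC80), which reads unmethylated histone H3, measured 34.9 and 34.8 CPM in 1035+Doxo, 34.8 and 31.2 CPM in 1035, 26.9 and 31.6 CPM in Doxo, and 23.0 and 23.7 CPM in DMSO. The second Doxo library lay above the second 1035 library, so the sets with and without 1035 overlapped. PHF21A rose by 0.50 ± 0.09 in 1035 against DMSO (log2, SE, n = 2 each, edgeR adjusted p = 2.17e-05) and by 0.26 in 1035+Doxo against Doxo (adjusted p = 0.0174). In 1035+Doxo against Doxo its call ended in DESeq2 (adjusted p = 0.118), without the first Doxo library (0.31), and without the first or second 1035+Doxo library (0.0863 and 0.0725).

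HMG20B, an HMG-box partner of the demethylase, was at 80.3 to 87.9 CPM with 1035 and at 66.1 to 69.9 CPM without. It rose by 0.32 in 1035 against DMSO and by 0.23 in 1035+Doxo against Doxo (edgeR adjusted p = 0.000121 and 0.00491). KDM1A itself had a log2 fold change of -0.01 in 1035 against DMSO (95% interval -0.13 to 0.11). The scaffold RCOR1 had -0.01, RCOR3 had 0.14 and MIER1, a separate scaffold for HDAC1 and HDAC2, had -0.06, and none of the 3 passed the test.

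With doxorubicin present in both arms, 1035+Doxo against Doxo called 15 of 32 subunits, 7 higher and 8 lower. This is 46.9%, and 43.8% of all genes passed (21.8% higher, 22% lower). By complex, NuRD had 1 higher and 7 lower, SIN3 had 3 higher and 1 lower, NCOR had 1 higher, and CoREST with MIER had 2 higher. RBBP4 and RBBP7, also SIN3 subunits, were again among the 7. Of the 16 subunits called in 1035 against DMSO, 14 (87.5%) were called the same way here, and these were 93.3% of the 15 called here. Of all genes 37.7% were called the same way in both, which were 77% and 86.1% of those called in each. The 2 tests take their spread from 1 fit over all 8 libraries. SIN3A and SAP130 passed only the first of these tests and GATAD2A only the second; the interaction passed for none of them. Without the first Doxo library, or without the second 1035+Doxo library, the subunits called higher numbered 4, and those called either way were 40.6% and 31.2%, against 38.3% and 34.7% of all genes. The log2 fold changes of the 2 comparisons, which have no library in common, had a Pearson r of 0.945 across the 32 subunits and of 0.543 across all genes, as a description over genes that are not independent replicates. These 2 values are not matched for depth. Every subunit had at least 88 reads in each library, while 12073 of the 16320 genes had a mean normalised count of at least 50.

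Set side by side, the 4 libraries given 1035 did not overlap the 4 without it for 15 subunits, 7 above and 8 below. Again this is 46.9%, against 49.2% of all genes. NuRD had 7 of the 8 that lay below (MTA1, MTA2, CHD3, MBD3, GATAD2A, RBBP4 and RBBP7), and SIN3 had the other, BRMS1. RBBP4 and RBBP7 belong to SIN3 too and were counted under NuRD only. Those above were MTA3 and GATAD2B of NuRD, SIN3B, SUDS3 and ARID4A of SIN3, TBL1X of NCOR and HMG20B of CoREST. Against DMSO, 1035+Doxo called 10 higher and 9 lower, 59.4% of subunits against 49.2% of all genes. All genes include some with fewer reads than any subunit, so these shares are not matched for depth. This comparison shares libraries with both others. MTA3 (0.24, higher) and SAP30 (-0.26, lower) passed in it and in neither of those, and GATAD2A (-0.17, lower) passed in it and in 1035+Doxo against Doxo. Each of these 3 calls against DMSO ended in 4 or 5 of 15 alternatives.

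**Figure D3:**
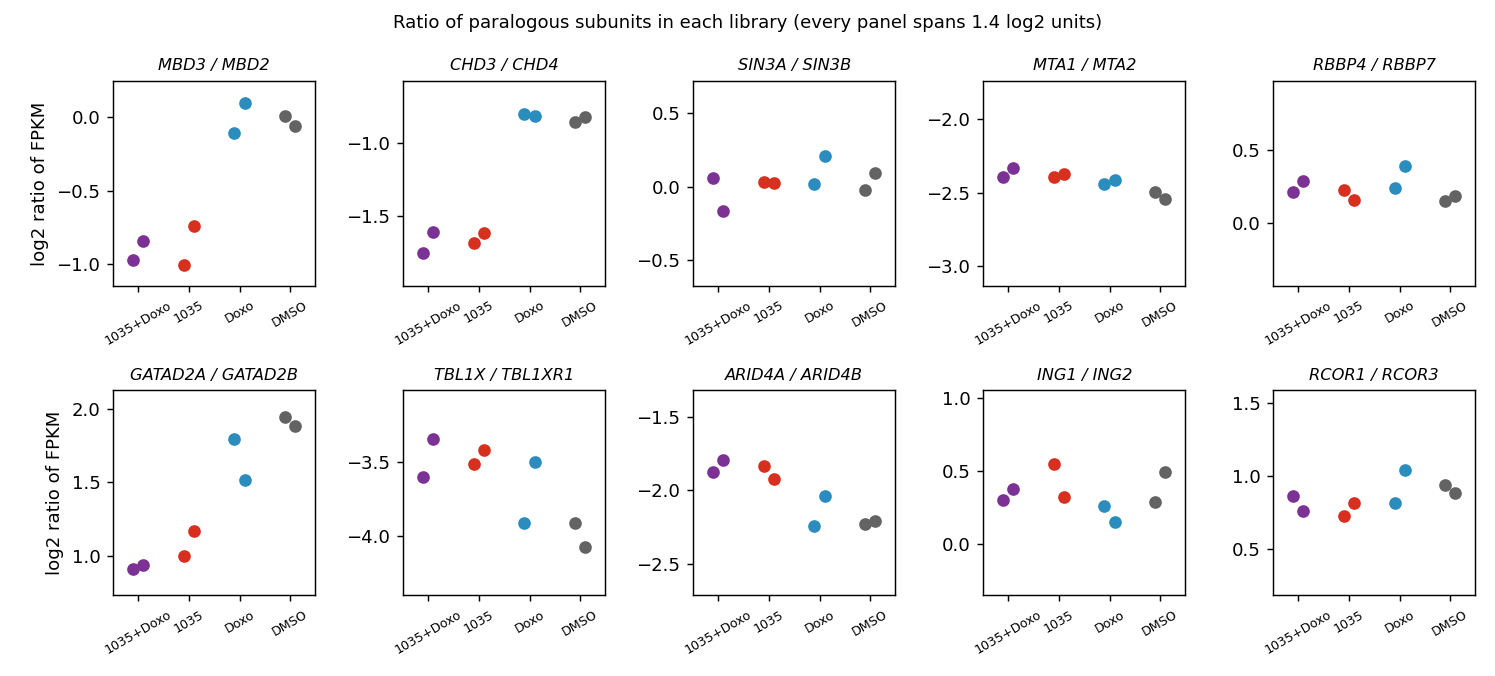
Log2 ratio of FPKM between paralogous subunits in every library, for 10 pairs, with groups in the order 1035+Doxo, 1035, Doxo and DMSO. For MBD3/MBD2, CHD3/CHD4, MTA1/MTA2, GATAD2A/GATAD2B and ARID4A/ARID4B the ranges with and without 1035 do not overlap. The same is true of 49.2% of all single genes, and no share over other gene pairs was computed.

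Several NuRD positions can be filled by either of 2 paralogs, so the paralogs are set against each other here. Their shares were taken from FPKM, that is, per gene length. CHD3 held 22.9% to 24.7% of the FPKM of CHD3 and CHD4 together in libraries given 1035, against 35.6% to 36.4% in those without. MBD3 held 33.3% to 37.4% of MBD2 and MBD3 with 1035, against 48.2% to 51.8% without. GATAD2B held 30.8% to 34.8% of its pair with 1035, against 20.6% to 25.9% without. In each of these 3 pairs every library given 1035 lay outside the range of the others. MBD3, CHD3 and GATAD2B already did so as single genes, as did 49.2% of all genes. The shares therefore partly restate those changes, and no share over other gene pairs was computed.

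Among the scaffolds MTA1 held 16.0% to 16.5% of the FPKM of MTA1 and MTA2 with 1035, against 14.7% to 15.8% without, and both genes fell. ARID4A held 20.8% to 22.4% of its pair with 1035, against 17.4% to 19.6% without. For the other 5 of 10 pairs (SIN3A and SIN3B, RBBP4 and RBBP7, TBL1X and TBL1XR1, ING1 and ING2, RCOR1 and RCOR3) the ranges overlapped. The shares were not tested.

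Levels between genes were compared per length, as FPKM computed from the CPM and the length implied by the deposited FPKM. In the NuRD complex CHD4 was at 99.0 FPKM and MTA2 at 77.2 FPKM in 1035, against 97.0 FPKM for CHD4 and 107 FPKM for MTA2 in DMSO, so the order of these 2 differed between the groups. CHD3 came next in both, with 31.5 FPKM in 1035 and 54.2 FPKM in DMSO, while in 1035 it lay next to RBBP4 at 31.1 FPKM. MTA3 was lowest, at 2.41 FPKM in 1035 and 2.11 FPKM in DMSO. Among the 32, KDM1A was the most abundant CoREST subunit (63.8 FPKM in 1035 and 64.3 FPKM in DMSO). On the same list TBL1XR1 was the most abundant of NCOR (49.2 and 47.4 FPKM) and SAP18 of SIN3 (39.1 and 40.3 FPKM). The subunits on this list that rose by at least 0.5 were among the least abundant listed for their complexes. TBL1X and PHF21A were lowest of the listed NCOR and CoREST subunits, and GATAD2B was above MTA3 only.

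**Figure D4:**
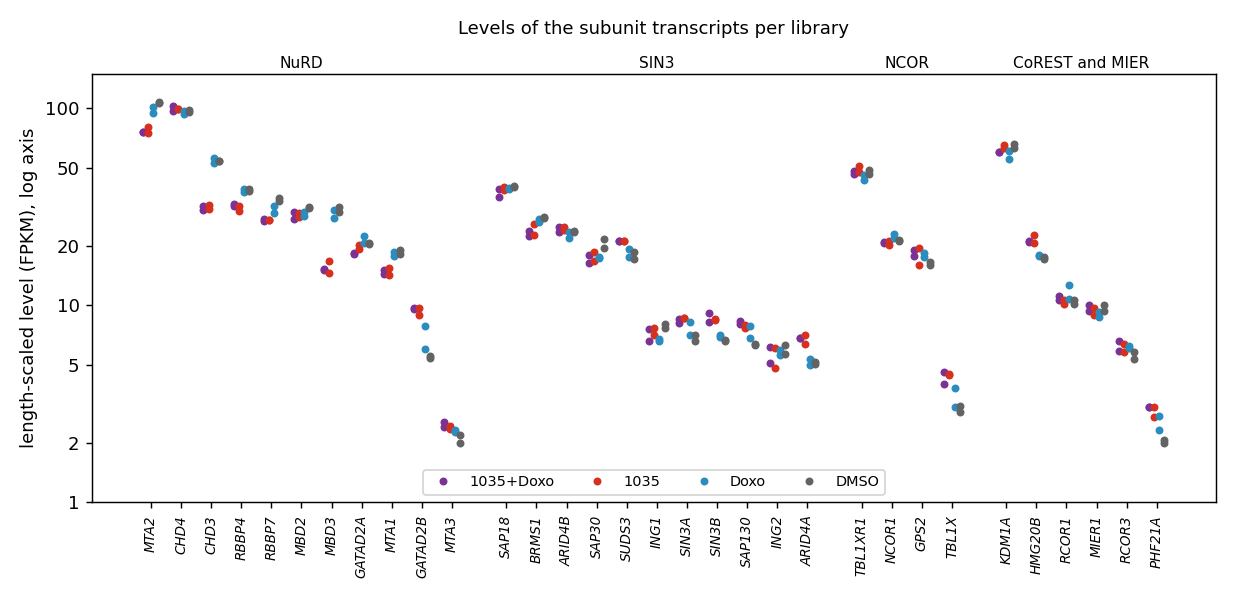
FPKM of each subunit in every library on a log axis, ordered within its complex by the DMSO mean, with groups in the order 1035+Doxo, 1035, Doxo and DMSO. MTA2 and CHD4 lead NuRD, SAP18 leads SIN3, TBL1XR1 leads NCOR and KDM1A leads CoREST.

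Doxorubicin alone, at 0.1 µM for 10 h, called none of the 32 subunits against DMSO, where 1.33% of all genes passed in edgeR (128 higher, 0.784%, and 89 lower, 0.545%). DESeq2 also called 0, with no adjusted p for 8 of the subunits. At an unadjusted p under 0.05 there were 10 subunits (31.2%), namely MTA2, GATAD2B, RBBP7, SIN3A, SAP30, SAP130, ING1, RCOR1, KDM1A and PHF21A, against 13.3% of all genes. The smallest adjusted p was that of GATAD2B (0.33 in log2, 95% interval 0.14 to 0.53, adjusted p = 0.0788). It was 1.83e-05 without the first Doxo library, which leaves 1 library in that group whose spread is taken from the other groups. PHF21A followed with 0.31 (adjusted p = 0.0865), and was at 0.00511 without that library. Leaving it out brought the calls to 5 higher (GATAD2B, PHF21A, RCOR1, SIN3A and TBL1X) and 2 lower (KDM1A and RBBP7), or 21.9% of the subunits, and those over all genes to 634 higher and 546 lower, or 7.15%. The 95% interval lay within 0.5 of no difference for 30 of the 32 subunits. For MBD3 and CHD3 the log2 fold changes were -0.08 (interval -0.21 to 0.04) and 0.00 (-0.11 to 0.12).

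The 2 Doxo libraries differed here. For 13 of the 16 subunits called in 1035 against DMSO (81.2%), the second Doxo library was nearer to the mean of the 1035 group than the first, as it was for 59.7% of all genes called there. Whether this pair's difference is technical was not tested.

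**Figure D5:**
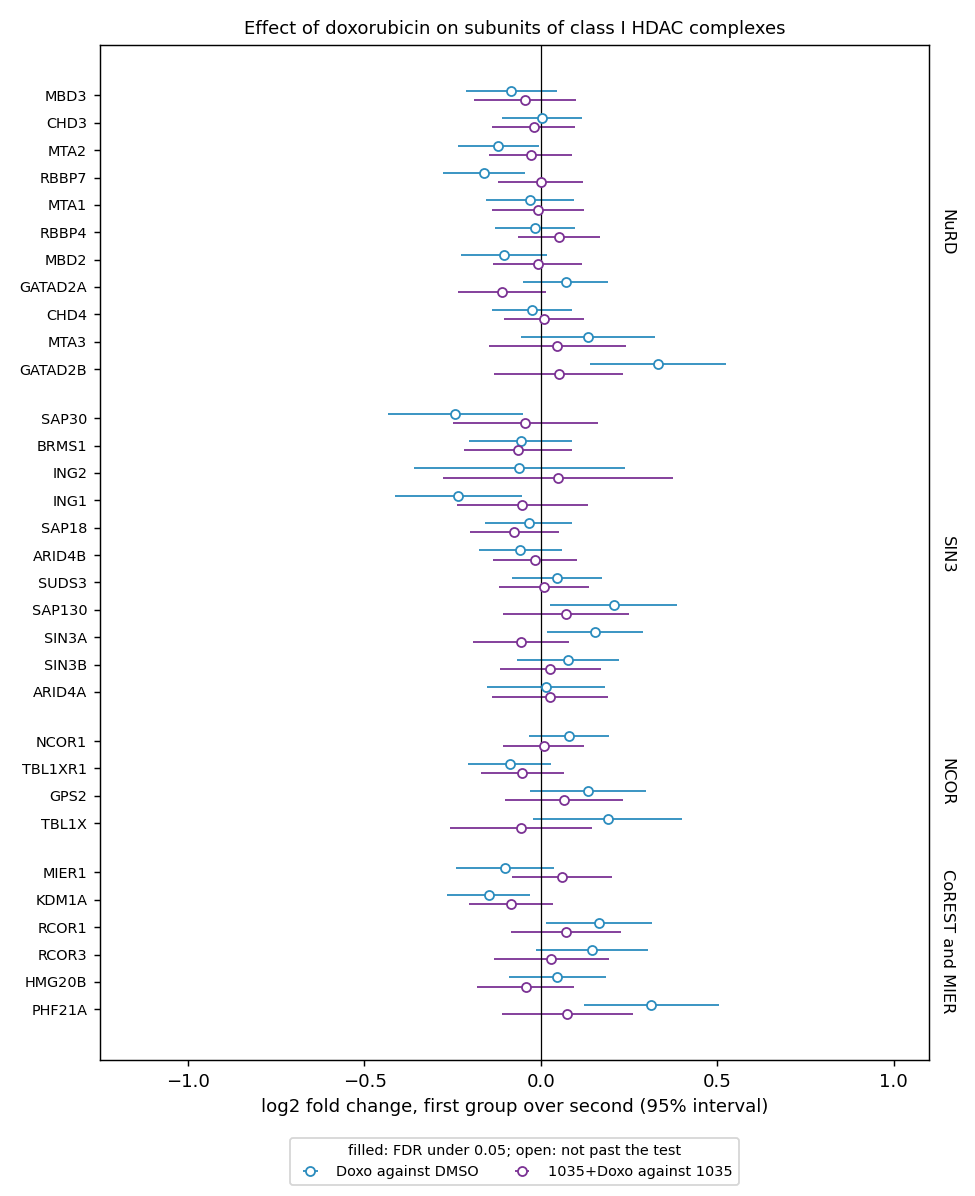
Log2 fold change of each of the 32 subunits in Doxo against DMSO and in 1035+Doxo against 1035, with 95% intervals. No subunit passed the FDR of 0.05, and GATAD2B (0.33) and PHF21A (0.31) lie highest in Doxo against DMSO.

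After 1035, doxorubicin called 0 subunits in 1035+Doxo against 1035, where 0.496% of all genes passed in edgeR (57 higher, 0.349%, and 24 lower, 0.147%). There were 0 at an unadjusted p under 0.05, against 6.8% of all genes, and 0 in DESeq2. All 32 intervals lay within 0.5 of no difference, and the bound farthest from it was 0.37, for ING2. MBD3 had a log2 fold change of -0.04 (interval -0.19 to 0.10), CHD3 -0.02 and GATAD2B 0.05. This comparison cannot separate the arrival of doxorubicin from any end of exposure to 1035.

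The interaction asked whether the effect of 1035 with doxorubicin differed from that without. It passed for 0 subunits, against 0.0184% of all genes (3 genes), and for 0 subunits in DESeq2. At an unadjusted p under 0.05 there were 3 subunits (GATAD2A, GATAD2B and SIN3A), or 9.38%, against 4.82% of all genes. The differences were -0.28 for GATAD2B (interval -0.55 to -0.02), -0.21 for SIN3A and -0.18 for GATAD2A, each with an adjusted p of 0.952. For MBD3 it was 0.04 (-0.15 to 0.23) and for CHD3 -0.02 (-0.19 to 0.14). For 28 of the subunits the interval lay within 0.5 of no difference. Without the first Doxo library GATAD2B had an interaction with an adjusted p of 0.0119.

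A list of 29 other subunits of these complexes, the deacetylases included, had 28 genes with counts in all libraries. In 1035 against DMSO 13 were higher, 5 were lower and 10 did not pass the test, with a median of 0.20. Called were 64.3% of this list, against 49% of all genes tested. HDAC1, HDAC3 and HDAC8 rose by 0.32, 0.31 and 0.30, and HDAC2 had -0.13 (adjusted p = 0.069). Of the genes past 0.5, SAP25 (a SIN3 subunit) rose by 0.90, and ZNF217 and GSE1, both found with CoREST, rose by 0.69 and 0.61. CTBP1, a corepressor that joins CoREST, fell by 0.57. SAP25 was at 5.04 to 6.26 CPM in libraries given 1035 and at 2.61 to 3.64 CPM in the others, so it was scarce throughout.

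In 1035+Doxo against Doxo, 12 of these 28 genes were higher and 4 were lower (57.1%, against 43.8% of all genes). These shares were not matched for depth either. ZNF217, GSE1 and SAP25 again rose, by 0.68, 0.51 and 0.70. RCOR2, a CoREST scaffold, rose by 1.12 in 1035+Doxo against Doxo, with at most 2.76 CPM in any library. In Doxo against DMSO 2 of the 28 passed the test in edgeR, 1 higher and 1 lower (7.14%, against 1.33% of all genes). DESeq2 called 1. The lower in edgeR was CTBP1, which fell by 0.23 (adjusted p = 0.0354). In 1035+Doxo against 1035 0 of the 28 passed the test in edgeR. That comparison had 3 of these genes at an unadjusted p under 0.05 and 0 in DESeq2.

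The authors' deposited table for 1035 against DMSO called 9 subunits higher and 7 lower at their adjusted p under 0.05, where 37.4% of its genes passed (17.5% higher, 19.9% lower). The authors' deposited table for 1035+Doxo against Doxo called 3 higher and 6 lower, where 26.2% of its genes passed (12.5% higher, 13.7% lower). The authors' deposited tables for Doxo against DMSO and for 1035+Doxo against 1035 called 0, with 0.477% and 0.215% of their genes past that threshold.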

How the data were processed

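Total RNA of SupB15 cells was sequenced in 8 libraries. The submitters' processing notes name Novoalign 2.08.01, the build hg19 and DESeq2 1.4.5. The counting program, its annotation and any use of strand were not given in the sources used here. The authors deposited 4 tables of 2 groups each, which per the file headers hold raw counts per gene. The deposited FPKM are counts scaled by gene length and library size, and served only to give each gene's length. The deposited log2 fold changes and the deposited adjusted p-values are the authors' own, used only where named.

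Tables were joined by gene identifier: 132880 of 132880 counts present in 2 tables were equal, and 16608 of 17849 genes had counts in all libraries. Genes were filtered with filterByExpr, which left 16320 and all 32 subunits. Counts were TMM-normalised and fitted with edgeR 4.0.16 (R 4.3.3; limma 3.58.1), robust quasi-likelihood, with a mean for each of the 4 groups over all 8 libraries (4 residual degrees of freedom, common biological coefficient of variation 4.57%). F-tests were two-sided, with Benjamini-Hochberg adjustment over every gene tested at an FDR of 0.05, and the script was tested on simulated data. In no comparison did the median gene move by more than 0.015 in log2. Intervals are at 95%. DESeq2 1.42.0, other filters and scalings, the 2 groups alone, a replicate block and leaving out libraries were alternatives; leaving out library 2 of 1035 and of Doxo together was added after seeing the data.

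Same-numbered libraries did not deviate together (correlations of -0.08 to 0.08 over 12073 genes), so the numbers were not taken as pairs. Depth was 11760542 to 18144670 reads. Shares of subunits and of all genes were nowhere matched for depth. The members and lists were chosen with earlier results of these data known. Values per library are given for members that passed a test by at least 0.5 in log2, and for paralogs and members near that size. Neighbouring genes were read from GENCODE v29, pseudogene names from RefSeq, and promoter windows from RefSeq (GRCh38.p14). The values of 1 gene on the list of other subunits are not reported here.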

Additional observations from a re-analysis of the deposited data

Results flagged for a closer look

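GATAD2A, the NuRD bridging subunit, had differences of opposite sign with doxorubicin in the presence and absence of 1035, neither past the test. Its log2 fold change was -0.11 in 1035+Doxo against 1035 and 0.0707 in Doxo against DMSO, and each library of 1035+Doxo lay below those of 1035 while each of Doxo lay above those of DMSO, although the first Doxo library and the first DMSO library were both at 152 CPM. In edgeR the adjusted p was 0.81 in 1035+Doxo against 1035 and 0.664 in Doxo against DMSO. The test of the difference itself, the interaction, was -0.18 with an adjusted p of 0.952.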

How the results depend on the processing

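Across 15 alternatives no log2 fold change of a subunit that passed the test changed sign. In 1035 against DMSO, leaving out a library gave 8 to 10 subunits higher and 6 to 8 lower, against 9 and 7. In 1035+Doxo against Doxo it gave 4 to 9 higher and 6 to 9 lower, against 7 and 8, and the other settings gave 5 to 9 higher. In 1035+Doxo against DMSO it gave 9 to 11 higher and 7 to 10 lower. In Doxo against DMSO leaving out a library gave 0 to 5 higher and 0 to 2 lower, in 1035+Doxo against 1035 it gave 0 of each, and in the interaction 0 higher and 0 to 1 lower. With replicate number as a block, Doxo against DMSO had 1 subunit higher (GATAD2B, adjusted p = 0.0495); the numbers were not shown to pair the samples. Over all genes, Doxo against DMSO had 128 higher and 89 lower, against 58 higher and 94 lower in DESeq2. With only these 2 groups it had 76 and 58, and the counts also shifted with a library left out. For 1035+Doxo against 1035 the 57 higher and 24 lower became 93 and 58 with only 2 groups. The interaction called 3 genes higher and 0 lower, and 12 lower with the replicate block. DESeq2 called 15, 12 and 17 subunits in 1035 against DMSO, 1035+Doxo against Doxo and 1035+Doxo against DMSO, against 16, 15 and 19; as shares these are 46.9%, 37.5% and 53.1%, against 37.9%, 33.3% and 38.4% of all genes in DESeq2. The cause of these shifts was not tested. With 2 libraries a group, the smallest subunit change that was called was that of GATAD2A in 1035+Doxo against DMSO (-0.17), so smaller differences may be missed at this depth.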
